A study of Danio rerio with 6 samples.

Results

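AP-1, ATF and immediate early factors were followed as 9 genes in whole zebrafish embryos: the Fos and Jun family genes fosl2, junbb, fosab and jdp2b, the ATF genes atf3, atf4a and atf5b, and the immediate early genes egr1 and ier2b. They are 9 of the 2137 genes named in the authors' fold change tables, and were read from 12 of the 15502 probe sets besides controls, 4 for fosab and 1 for each other gene. A given probe set stood for each of fosl2, atf3 and atf5b, and for the other 6 genes every probe set that those tables assign to them was taken. A probe set enters those tables only at a 2-fold difference on these same arrays, so the choice used measured values. fosl2, junbb, atf3, atf4a and atf5b were listed in both comparisons of ERbeta2 MO embryos, egr1 and ier2b only in the comparison with uninjected embryos, and fosab and jdp2b only in the comparison of the 2 kinds of control. Values of a gene in a comparison that chose it are given as a description without a test.

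The study asked about a role of the estrogen receptor ERbeta2 in neuromasts, which are the lateral line's sense organs. ERbeta2 MO embryos were injected, up to the 4-cell stage, with 50 uM of a morpholino that blocks translation of ERbeta2 mRNA, coMO embryos with 50 uM of a standard control morpholino, and uninjected embryos with nothing. All were raised at 28 °C from eggs pooled over several aquaria and collected at 72 h after fertilization, and each group had 2 Affymetrix arrays. The titles call the 2 arrays biological replicates, no label tells whether they came from separate spawnings or names a strain, and p-values therefore measure the spread between these samples.

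AP-1 is a dimer of basic leucine zipper proteins, a Jun protein with a Fos, ATF or JDP partner, that binds short DNA elements and is induced within minutes to hours by growth factors, wounding and stress. ATF4 is made when protein synthesis is slowed under stress or amino acid shortage, and it activates ATF3, ATF5 and genes of amino acid supply. Immediate early genes such as EGR1, FOS and IER2 are switched on without new protein synthesis and are usually expressed briefly. These statements come mostly from mammalian cells.

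Whole embryo RNA mixes all cell types, so fewer cells of a type and less RNA per cell cannot be told apart. Correlations were taken over the 9301 probe sets left by a filter on low signals, which are not independent of each other. The 2 arrays of a group had correlations of 0.982 to 0.990. ERbeta2 MO arrays had 0.799 to 0.813 with control arrays, and coMO had 0.978 to 0.986 with uninjected arrays. The GAPDH probe sets at the 3' and 5' ends, whose ratio reads how intact and how fully labelled the RNA is, stood in a ratio of 2.14 and 2.15 on the ERbeta2 MO arrays, against 1.66 and 1.34 on the coMO and 1.47 and 1.35 on the uninjected arrays. All differences of ERbeta2 MO embryos below go with that raised ratio, whose part in them was not tested. Cell type markers could be tested only where the authors' tables name them, which needs a 2-fold difference on these arrays. Their counts by limma are therefore a description, and of all 1397 genes named and tested 53.6% rose over coMO and 43.5% fell. Of the tested markers, all 3 for photoreceptors, 3 for exocrine pancreas, 3 for intestine, 3 for skin and 2 for liver fell over coMO. All 5 for red blood cells and the 1 tested of 6 for muscle rose, and of 3 for neurons 1 rose and 2 fell. With arrays scaled instead to poly-A spikes, RNAs added before labelling, neither of these 2 falls passed, and snap25a, a gene of synaptic release, stood at 0.29 in place of -0.75. That scaling moved the median of all tested probe sets over coMO from 0.045 to 1.05, so relative to that median snap25a was lower under each. The photoreceptor opsin opn1mw1 lay near the bottom of the signal range in ERbeta2 MO embryos (20.9 and 38.0), and so did the embryonic globin hbbe3 in coMO (21.7 and 43.3) and uninjected embryos (14.4 and 14.9). The part of this makeup in the differences below was not tested.

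The clearest difference was in 5 genes that were several-fold higher in ERbeta2 MO embryos than in either control. fosl2, which encodes the Fos family partner Fra-2, had signals of 1706 and 1872 in ERbeta2 MO embryos, against 249 and 240 in coMO and 283 and 232 in uninjected embryos. The 2 control groups overlapped, and both ERbeta2 MO arrays lay far above all 4 control arrays. The mean was 1789 ± 118 in ERbeta2 MO and 244 ± 6.23 in coMO embryos (SD, n = 2 each), a difference of 2.79 on the log2(signal + 16) scale, or 6.93-fold. Of all 9301 probe sets that passed a filter on low signals, 99.9% had a lower value in that comparison, which had chosen fosl2. Another 2 probe sets carry an older clone name that the reference gene table gives to fosl2, and they lie outside the 12. The brighter of them had 663 and 727 in ERbeta2 MO embryos, against 107 and 157 in coMO and 155 and 186 in uninjected embryos, a log2 difference of 2.29 from coMO. The dimmer had 372 and 387 in ERbeta2 MO embryos, against 104 and 121 in coMO and 112 and 109 in uninjected embryos, a log2 difference of 1.62. These 2 could be found only because the authors' tables list them, which needs a 2-fold difference on these arrays. Their shared direction with the first is therefore a description and no independent support. The 3 probe sets had folds of 6.93, 4.87 and 3.08 over coMO, so the size depends on which probe set is read.

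junbb, one of the zebrafish copies of JunB, had 3006 and 3251 in ERbeta2 MO embryos, against 707 and 798 in coMO and 956 and 1105 in uninjected embryos. None of the 3 groups overlapped, and coMO was the lowest. The difference was 2.03 on the log2 scale over coMO (4.09-fold) and 1.59 over uninjected embryos (3.01-fold). junbb thus stood less far above uninjected than above coMO embryos, and those comparisons share the ERbeta2 MO arrays.

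The ATF genes were high in the same arrays. atf3, a stress-induced factor that forms dimers with Jun proteins, had 1524 and 1590 in ERbeta2 MO embryos, against 288 and 216 in coMO and 316 and 251 in uninjected embryos. Its log2 difference was 2.57 over coMO (5.92-fold) and 2.40 over uninjected embryos (5.28-fold), and the control groups overlapped. atf4a, an ortholog of the amino acid response factor ATF4, had 8495 and 8925 in ERbeta2 MO embryos, against 2064 and 2393 in coMO and 1778 and 1962 in uninjected embryos. That is a log2 difference of 1.96 over coMO (3.90-fold) and 2.21 over uninjected embryos (4.63-fold). ATF4 is known to be controlled largely at translation in mammals, and the arrays read only its mRNA. atf5b, a relative of ATF4, had 2415 and 2371 in ERbeta2 MO embryos, against 397 and 437 in coMO and 404 and 273 in uninjected embryos. Its log2 difference was 2.48 over coMO (5.57-fold) and 2.79 over uninjected embryos (6.91-fold). For fosl2, atf3, atf5b and atf4a, 99.4% or more of all tested probe sets had a lower value than theirs over coMO, and 99.7% or more over uninjected embryos. For junbb these shares were 99.5% and 98.0%. Nothing is read from these ranks, since the tables' 2-fold rule chose the genes in both comparisons.

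fosab and jdp2b had another pattern, lower in coMO than in uninjected embryos, with ERbeta2 MO embryos between the 2 or close to one of them. fosab is an ortholog of Fos, the partner of Jun in the classical AP-1 dimer. Its brightest probe set had 1277 and 1282 in ERbeta2 MO embryos, against 696 and 717 in coMO and 1517 and 1338 in uninjected embryos. ERbeta2 MO embryos lay between the controls, closer to uninjected embryos. The second brightest had 557 and 640 in ERbeta2 MO embryos, against 439 and 380 in coMO and 658 and 585 in uninjected embryos, and here ERbeta2 MO and uninjected arrays overlapped. The other 2 probe sets placed ERbeta2 MO embryos nearer to coMO embryos. The third had 511 and 433 in ERbeta2 MO embryos, against 405 and 357 in coMO and 644 and 828 in uninjected embryos. The dimmest had 375 and 376 in ERbeta2 MO embryos, against 380 and 440 in coMO and 703 and 622 in uninjected embryos.

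The 4 fosab probe sets therefore disagreed on ERbeta2 MO against coMO, with log2 differences of 0.84, 0.53, 0.30 and -0.12, and ran from -0.053 to -0.79 against uninjected embryos. They had 1 direction for coMO against uninjected embryos, with log2 differences of -0.996 to -0.58, and they share a gene and cannot count as replicates. jdp2b, whose mammalian ortholog represses AP-1, had 308 and 272 in ERbeta2 MO embryos, against 251 and 212 in coMO and 393 and 355 in uninjected embryos. The 3 groups did not overlap, with log2 differences of 0.31 over coMO and -0.35 over uninjected embryos in ERbeta2 MO, and of -0.66 in coMO over uninjected embryos. The directions of ERbeta2 MO embryos in fosab and jdp2b depend on the scaling. With the poly-A scaling the differences over uninjected embryos were 0.50, 0.60 and 0.031 for the 3 brighter fosab probe sets and 0.29 for jdp2b, and that of the dimmest fosab probe set over coMO was 0.89. The median of all tested probe sets then stood at 0.69 over uninjected embryos and at 1.05 over coMO, above each of these values.

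egr1 and ier2b ran opposite to fosl2 and the ATF genes. egr1, a zinc finger transcription factor, had 111 and 103 in ERbeta2 MO embryos, against 188 and 196 in coMO and 311 and 324 in uninjected embryos. ier2b, a nuclear protein gene of the early response, had 510 and 470 in ERbeta2 MO embryos, against 774 and 833 in coMO and 1199 and 1199 in uninjected embryos. In both genes the groups were separate and in the same order, ERbeta2 MO below coMO and coMO below uninjected embryos. The log2 difference of ERbeta2 MO over uninjected embryos was -1.44 for egr1 and -1.26 for ier2b, and over coMO it was -0.76 for egr1 and -0.70 for ier2b. Under the scaling to poly-A spikes the difference over coMO turned to 0.18 for egr1 and 0.33 for ier2b. That scaling also moves the median of all tested probe sets, 0.045 as deposited, to 1.05, so relative to that median both genes were lower under each. With that scaling the difference over uninjected embryos was -0.84 for egr1 and -0.62 for ier2b, with the median of all at 0.69. Under the 4 alternative normalizations the 5 raised genes had log2 differences over coMO of 1.98 to 3.80.

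**Figure D1:**
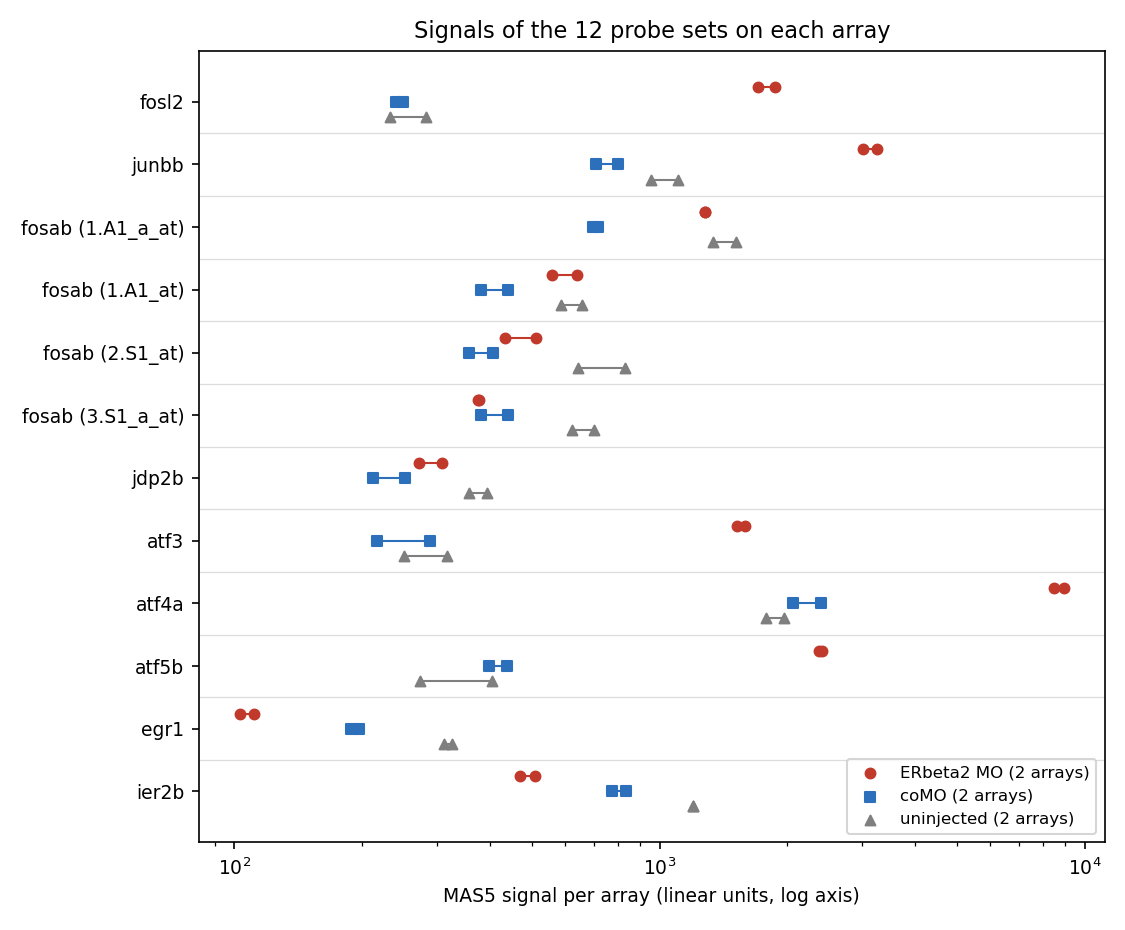
MAS5 signal of each of the 12 probe sets (rows) on each of the 6 arrays, on a log axis, with a line joining the 2 arrays of a group. ERbeta2 MO arrays (circles) lie far to the right for fosl2, junbb, atf3, atf4a and atf5b (fosl2 at 1706 and 1872, against 249 and 240 in coMO), to the left for egr1 and ier2b, and between or close to the controls for fosab and jdp2b.

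None of the 12 probe sets overlapped between ERbeta2 MO and coMO arrays, 9 being higher and 3 lower, where 41.8% of all tested probe sets were higher and 37.0% lower without overlap. Against uninjected arrays 5 were higher and 6 lower without overlap, where the shares over all were 42.1% and 36.8%, and the second brightest fosab probe set overlapped. The median log2 difference of the 12 was 0.69 over coMO and -0.10 over uninjected embryos, beside 0.045 and 0.047 over all probe sets tested. Of the 12, 4 belong to fosab, so that gene weighs more than any other in these counts and medians. With only the brightest probe set of each gene, the middle value of the 9 genes was 1.96 over coMO, that of atf4a. Over uninjected embryos it was 1.59, that of junbb. Since the tables' 2-fold rule chose the members, nothing is read from those counts or medians.

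**Figure D2:**
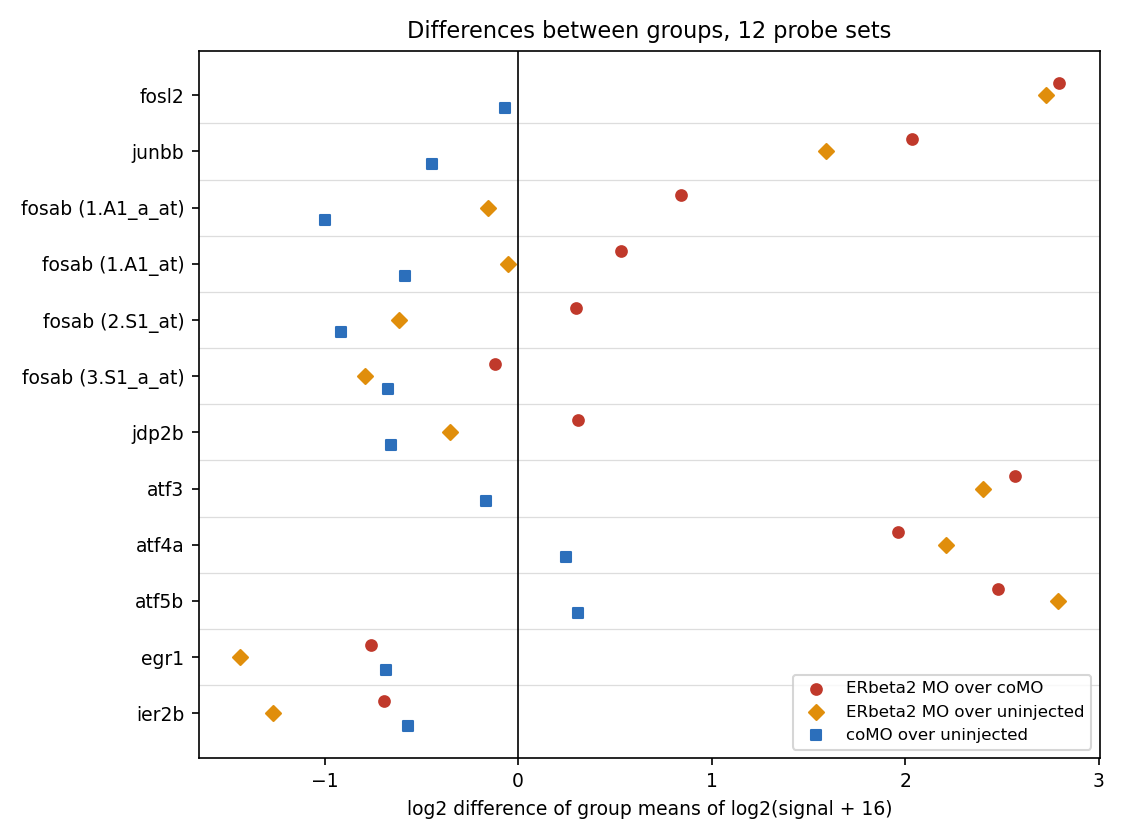
Log2 differences between group means for the 12 probe sets (rows), from log2(signal + 16), with ERbeta2 MO over coMO as circles, ERbeta2 MO over uninjected as diamonds and coMO over uninjected as squares. fosl2, atf3, atf4a and atf5b have both ERbeta2 MO differences at 1.96 or more and the difference between controls within 0.31 of 0, whereas fosab, jdp2b, egr1 and ier2b have differences between controls of -0.57 to -0.996.

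The effect of injecting a control morpholino is the comparison that did not choose fosl2, junbb, atf3, atf4a and atf5b. It shares both of its groups with the comparisons that chose them, so it is no independent experiment. Between the controls none of these 5 genes passed the test. The authors' table of the controls lists none of the 5 at 2-fold, which made a large difference in that comparison unlikely beforehand. Nothing is read from the lack of calls. limma called 0.505% of 9301 probe sets there at an adjusted p of 0.05, 27 higher (0.29%) and 20 lower in coMO embryos, and 7.88% had an unadjusted p under 0.05. Scaled to hybridization controls the split was 4 higher and 12 lower, and scaled to poly-A spikes 0 higher and 10 lower. fosl2 differed by -0.065 on the log2 scale in coMO over uninjected embryos (95% interval -0.40 to 0.27, limma adjusted p = 0.957) and atf3 by -0.16 (-0.52 to 0.19, limma adjusted p = 0.890). atf4a stood at 0.25 (-0.013 to 0.51, limma adjusted p = 0.676), with its coMO arrays above its uninjected arrays, and atf5b at 0.31 (-0.035 to 0.66, limma adjusted p = 0.710). With the poly-A scaling these 2 were -0.13 and -0.057, where the median of all tested probe sets was -0.36. The intervals of these 4 genes leave out a change as large as the 1.96 to 2.79 by which ERbeta2 MO embryos differed from coMO embryos, but do not show that the controls were alike. junbb stood at -0.44 (-0.73 to -0.16, limma adjusted p = 0.259), lower in both coMO arrays, and was the 1 gene of the 5 under 0.05 before adjustment. Over 16 alternative settings the adjusted p of junbb ran from 0.125 to 0.915, and those of the other 4 genes were 0.174 or more.

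The same fit holds the genes that were chosen on the controls, or on uninjected embryos, and they are described without a test. fosab, jdp2b, egr1 and ier2b were all lower in coMO than in uninjected embryos, with no overlap on any of their 7 probe sets. Over all tested probe sets 16.8% were lower in coMO without overlap and 17.5% higher, as atf4a was. The brightest (-0.996) and the third (-0.91) fosab probe sets were among the 20 probe sets called lower (0.215% of those tested), from which nothing is read, since the table of the controls chose fosab. The brightest lay near the bottom of all tested probe sets, with 0.0538% below it, in the comparison that chose it. Without coMO replicate 1, without coMO replicate 2 or without uninjected replicate 2, the number of called probe sets among the 12 was 1 in place of 2, and over all it was 16, 10 and 15 in place of 47.

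The authors' folds were mostly larger than ratios of the deposited signals. In the authors' deposited table fosl2 stood at 10.98 for ERbeta2 MO over coMO, where the ratio of mean signals was 7.33. In the authors' deposited table of the same comparison atf5b stood at 7.894 (signal ratio 5.74), atf3 at 7.014 (6.18), junbb at 5.472 (4.16) and atf4a at 5.383 (3.91). Against uninjected embryos the authors' deposited table gave 9.222 for fosl2, 8.311 for atf5b, 6.835 for atf3, 5.978 for atf4a, 3.329 for junbb, 0.374 for egr1 and 0.348 for ier2b. Signal ratios for these were 6.95, 7.07, 5.49, 4.66, 3.04, 0.338 and 0.409, so egr1 was the exception whose deposited fold was the smaller change.

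The authors' deposited table of the controls runs as uninjected over coMO and lists 21 probe sets, 5 of them for fosab and jdp2b. The authors' deposited table gave fosab 2.671, 2.564, 2.252 and 2.024, and jdp2b 2.149. The signal ratios of the same probe sets were 2.02, 1.61, 1.52, 1.93 and 1.61, so 4 of the 5 fell short of 2-fold. For 15 of the 21 listed probe sets the signal ratio was under 2-fold. Just inside the limit of 2 lay fosab, at 2.024 on the third of its probe sets in the authors' deposited table. Not listed for ERbeta2 MO over coMO were the brightest fosab probe set, with a signal ratio of 1.81, and egr1 and ier2b, which were lower by 1.79-fold and 1.64-fold. How the deposited folds were computed is not given in the sources used here.

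**Figure D3:**
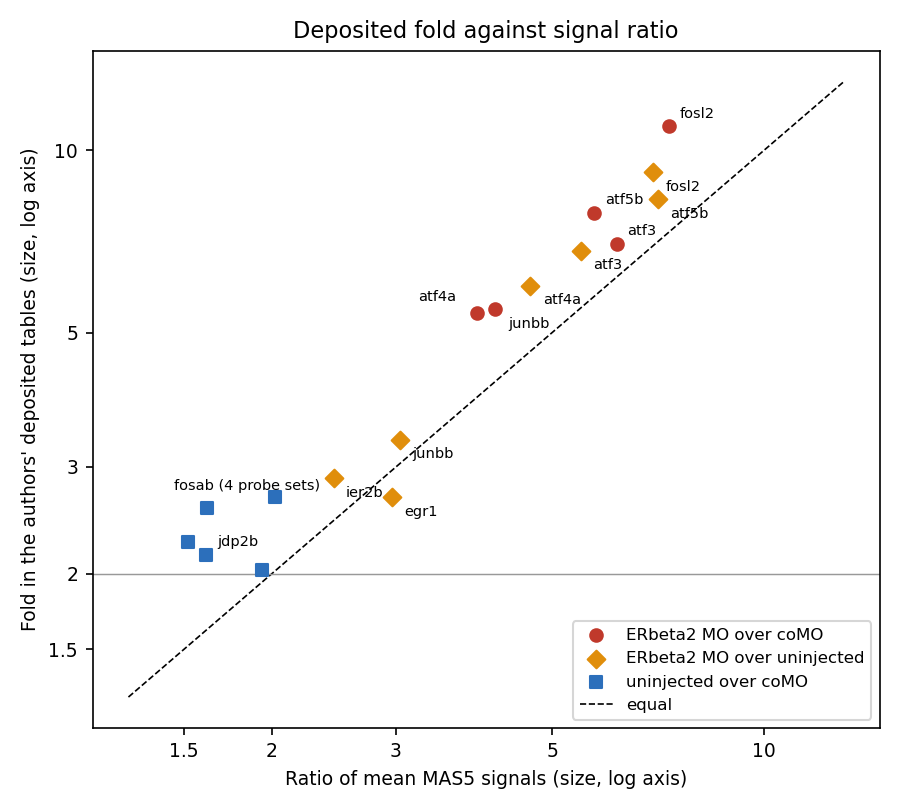
Fold of each member in the authors' deposited tables (vertical) against the ratio of mean MAS5 signals (horizontal), both on log axes, with folds under 1 turned over and the broken line marking equality. All points but egr1 lie above the line, and 4 of the 5 squares (uninjected over coMO) have signal ratios left of 2 while the deposited folds are 2.024 or more.

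Other genes of the same families and pathways were taken from 7 lists. Only genes named in the deposited tables can be seen, a minority of each list, and naming itself needs a 2-fold difference. A list's count is therefore not independent evidence of its direction, and limma calls of its genes over either control are a description. Of all 9301 probe sets limma called 29.5% higher (2740) and 26.8% lower (2491) in ERbeta2 MO than in coMO embryos, a split of 6670 higher and 350 lower with the poly-A scaling. Of the 1397 genes with a name, 53.6% were higher and 43.5% lower. Against uninjected embryos the shares were 30.4% and 26.5% of all probe sets and 54.5% and 43.7% of named genes. Both comparisons use the same ERbeta2 MO arrays, so their values are given in parallel and no overlap is drawn from them.

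In the Fos, Jun, Jdp and Batf list 6 of 17 genes were named and 2 of them were not members, and both rose in ERbeta2 MO embryos. junba, the other JunB copy, had 1409 and 1366 in ERbeta2 MO embryos, against 479 and 596 in coMO and 725 and 677 in uninjected embryos (log2 1.35 over coMO). jun, which encodes c-Jun, had 2523 and 2308 in ERbeta2 MO embryos, against 1099 and 1192 in coMO and 1262 and 1386 in uninjected embryos (log2 1.07 over coMO). All 3 Jun genes had their lowest signals in coMO embryos. Their log2 differences over uninjected embryos were -0.38 for junba, -0.21 for jun and -0.44 for junbb (limma adjusted p = 0.450, 0.787 and 0.259). Over all tested probe sets 16.8% were lower in coMO than in uninjected embryos without overlap, so nothing is read from this order. In the Atf, Creb and C/ebp list 6 of 33 were named, and the 3 that were not members all rose over coMO. They were atf4b, the other ATF4 copy (log2 1.39), cebpb, a factor of acute phase and stress responses (1.44), and cebpz (1.56). Whether cebpz belongs to these protein families was not checked. atf4b had 5251 and 5219 in ERbeta2 MO embryos, against 2036 and 1941 in coMO and 1912 and 1616 in uninjected embryos. Of the 20 Maf and Cnc genes 2 were named: nfe2l2a, a copy of the oxidative stress factor Nrf2, fell (log2 -2.23) and nfe2l3 rose (0.77). nfe2l3 had 511 and 753 in ERbeta2 MO embryos, against 367 and 347 in coMO and 290 and 252 in uninjected embryos, and without ERbeta2 MO replicate 2 its rise over coMO did not pass (0.50, limma adjusted p = 0.0761).

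The list of other immediate early genes went both ways. Of 55 genes 11 besides the members were named and tested, of which 5 rose and 6 fell over coMO, at a median log2 of -0.92, and the same numbers rose and fell over uninjected embryos. socs3b, an inhibitor of cytokine signalling, rose by 2.63 (1317 and 1485 in ERbeta2 MO embryos, against 209 and 214 in coMO and 234 and 203 in uninjected embryos). socs3a rose by 1.29, ptgs2a, a prostaglandin synthase, by 1.29, and mycb, a copy of Myc, by 1.28. npas4a, an activity-dependent factor of neurons, fell by 1.80 on the log2 scale (106 and 117 in ERbeta2 MO embryos, against 416 and 443 in coMO and 448 and 509 in uninjected embryos). klf2a, a factor of blood vessel lining in mammals, fell by 1.37. With the poly-A scaling 5 rose and 1 fell, and nr4a1, a nuclear receptor gene of the early response, stood at 0.086 in place of -0.92. The median of all tested probe sets over coMO was then 1.05.

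Most named genes known as targets of ATF4 rose. Of 49 listed, 10 were named, and 9 rose and 1 fell over coMO (median log2 1.30) and also over uninjected embryos (1.21). Without ERbeta2 MO replicate 1 the rise of wars1, an aminoacyl-tRNA synthetase gene, over coMO did not pass (0.49, limma adjusted p = 0.0562). Those with the smallest p were mostly aminoacyl-tRNA synthetases, enzymes that charge tRNAs with amino acids. So were most of the 10 named, and the direction of the list is therefore mostly that of the synthetases. eprs1 had 7317 and 6845 in ERbeta2 MO embryos, against 2030 and 1850 in coMO and 1629 and 1852 in uninjected embryos (log2 1.86 over coMO). iars1 rose by 2.04, lars1b by 1.41, tars1 by 1.31 and yars1 by 1.17. The remaining one of the 6 named by rule was cebpb, which is on the Atf, Creb and C/ebp list too. The exception, picked after its value was seen, was slc3a2a, a subunit of amino acid transporters (-0.94 over coMO). It turned to 0.087 with the poly-A scaling, where the median of all tested probe sets was 1.05. Such known targets as asns, ddit3 and chac1 were among the genes not named here.

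Of 46 genes known as AP-1 targets in other species 12 were named and 11 tested, of which 10 rose and 1 fell over coMO (median log2 1.70) and over uninjected embryos (1.91). The matrix metalloproteinase gene mmp9 had 4090 and 3913 in ERbeta2 MO embryos, against 138 and 138 in coMO and 174 and 142 in uninjected embryos, a log2 difference of 4.71 over coMO. The collagenase mmp13a rose by 3.51, timp2b, a metalloproteinase inhibitor, by 2.85, the polyamine enzyme odc1 by 2.73, the annexin anxa2a by 1.70 and the simple epithelial keratin krt18a.1 by 1.67. mmp14a (-0.87), picked after its value was seen, was the exception. It turned to 0.098 with the poly-A scaling, where the median of all tested probe sets was 1.05. Without ERbeta2 MO replicate 2 its difference was -0.55. In the Map kinase list only 3 of 60 genes were tested, and dusp2 among them is on the list of other immediate early genes too. mapkapk2a, a kinase downstream of p38, rose by 1.03, while the feedback inhibitors spry2 (-1.46) and dusp2 (-1.38) fell. With the poly-A scaling, and the median of all tested probe sets at 1.05, neither of these 2 falls passed. None of the genes outside the 9 on these 7 lists was called between coMO and uninjected embryos by limma (1 with the replicate number as a block), where the share over all named genes was 0.358% higher and 0.644% lower.

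**Figure D4:**
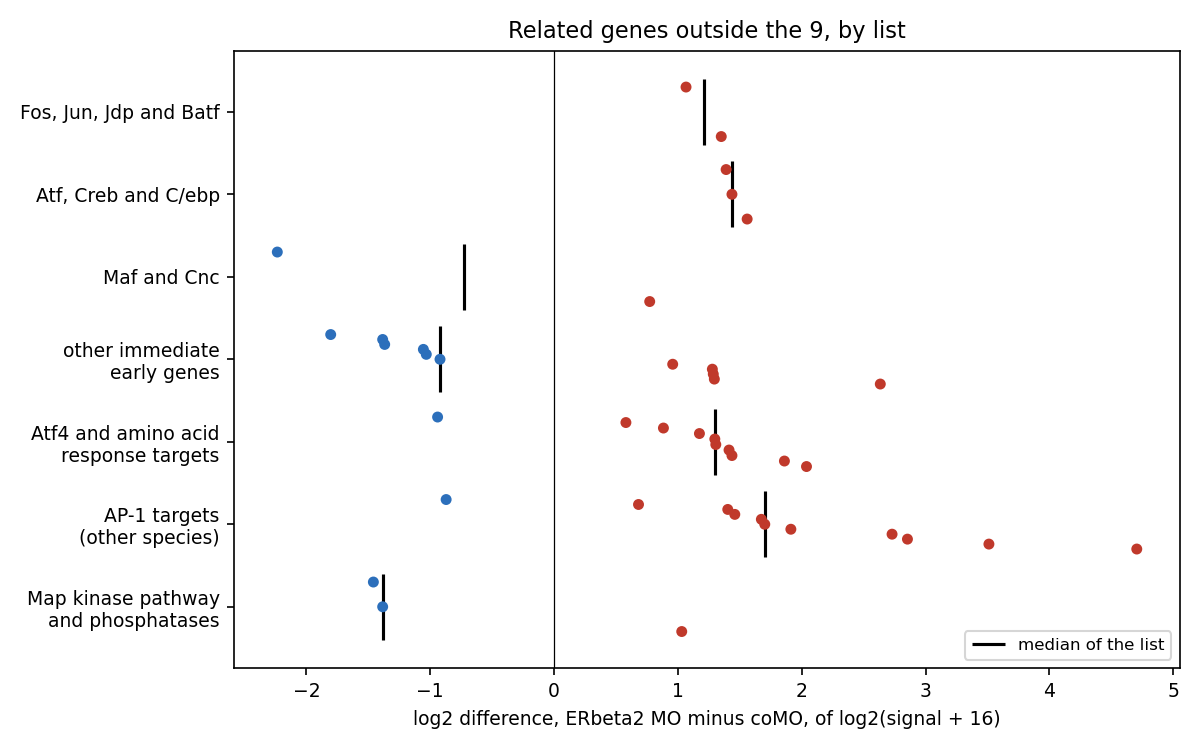
Log2 difference of ERbeta2 MO minus coMO for each named and tested gene outside the 9, by list (rows), as points to the right of 0 where higher and to the left where lower, with a bar at each list's median. The AP-1 target list (median 1.70) and the Atf4 target list (1.30) lie almost wholly to the right, and the other immediate early genes spread to both sides (median -0.92).

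Immune cell markers are given because several of the factors above are also induced in leukocytes. Of 9 leukocyte markers 3 were named, none of them at 0. Their summed signal, most of it from lyz, was 640 and 795 in ERbeta2 MO embryos, against 1410 and 1315 in coMO and 1258 and 1451 in uninjected embryos. lyz, the lysozyme of myeloid cells, had 425 and 484 in ERbeta2 MO embryos, against 1144 and 1029 in coMO and 1065 and 1187 in uninjected embryos, whereas cxcr4b, a chemokine receptor that other cells express too, had 161 and 226 against 95.8 and 107 in coMO and 69.0 and 77.7 in uninjected embryos. lcp1, an actin bundling protein of leukocytes, had 54.3 and 85.0 in ERbeta2 MO embryos, against 170 and 178 in coMO and 124 and 187 in uninjected embryos. Of the 3 only lyz passed the filter on low signals, and by limma it fell over coMO and over uninjected embryos. With the poly-A scaling neither fall of lyz passed. The median of all tested probe sets was then 1.05 over coMO and 0.69 over uninjected embryos. The part of cell makeup in the differences of the 9 genes was not tested.

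Across the 6 arrays, the genes nearest to the median profile of the 9 were sought by distance. Each gene was set relative to its mean in the 2 uninjected arrays, and the median over the 9 genes gave a profile of 1.53 and 1.65 in ERbeta2 MO, -0.53 and -0.36 in coMO and 0.069 and -0.069 in uninjected arrays, on the log2 scale. That profile stood 0.099 from junbb, its nearest member, and 1.76 from egr1, its farthest, as a root mean square over the arrays, so no single profile describes all 9. The next nearest member, atf3, stood at 0.52, so genes close to the profile are like junbb rather than like the 9. Of 1388 other named genes, isl2b, a LIM homeodomain factor of neurons (0.097), uck2a, a kinase of the pyrimidine salvage pathway (0.13), cdk8, a kinase of the Mediator complex (0.16), lsm12b (0.17) and rassf1 (0.19) lay closest.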

How the data were processed

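Probe set signals on a linear intensity scale were deposited by the authors, made with the MAS5 algorithm according to the submitters' processing notes, where neither a version nor any setting is stated. On every array the signal mean after trimming 2% at each end was 500.1, so the values are scaled per array. The authors' 3 deposited tables give a fold, a linear ratio between groups, for 2723, 2666 and 21 probe sets, per the file headers. Gene names came from these tables, updated through a RefSeq gene table by identifier (1668 probe sets), symbol (41) or older symbol (197), among the last fosl2 and ier2b. The file's symbol was kept for 420, 219 had several genes and 594 none.

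From the intensities log2(signal + 16) was taken. The 115 controls and the 40% of other probe sets with the lowest mean log2 were left out, which left 9301, with all 12 members. A linear model was fitted with limma 3.58.1 (lmFit, and eBayes with its trend option, R 4.3.3) to all 6 arrays in 3 groups, with 3 residual degrees of freedom and Benjamini-Hochberg adjustment over all 9301. The fit was tested on simulated data in which few probe sets changed, so that test does not cover the ERbeta2 MO comparisons. The members and lists were chosen with earlier results of these data known. Besides the members, up to 6 genes per list with the smallest limma p over coMO were named, and the 5 nearest to the members' median profile. A gene with several probe sets was read, in lists, from the brightest one named in the authors' tables. Any probe set of such a gene outside those tables was not seen. Precision is limited by the 2 arrays per group, and 95% intervals are limma's. No sequences were used here.

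Alternatives were offsets of 1 and 64, no filter or the lowest 60% left out, quantile normalization, median centring, scaling on hybridization controls or poly-A spikes, no trend, the replicate number as a block and each array left out.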

Additional observations from a re-analysis of the deposited data

How the results depend on the processing

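Between coMO and uninjected embryos, limma's calls depended on the settings. The number of probe sets called, 47, was 21 with no filter, 16 with the hybridization controls, 10 with the poly-A spikes, 11 with no trend and 92 with the replicate block, and ran from 10 to 41 with 1 array left out. Of the 12 probe sets of the 9 genes, 2 were called, both of fosab, where the share over all tested was 0.505%. With no filter 1 was called, with no trend 1, with median centring 3 and with the replicate block 4. Nothing is read from these counts, since that comparison chose fosab and jdp2b. Deviations of same-numbered arrays correlated at 0.016 (ERbeta2 MO with coMO), 0.013 (ERbeta2 MO with uninjected) and 0.12 (coMO with uninjected), so the numbers are not taken to pair the samples. The 5231 calls over coMO and 5295 over uninjected embryos stayed within 1.5 times under all 16 alternatives, but the split over coMO, 2740 higher and 2491 lower, became 3634 and 1928 under median centring. Scaling to hybridization controls gave 4747 and 1081 there, and scaling to poly-A spikes 6670 and 350. Over uninjected embryos the split of 2827 and 2468 became 3531 and 1988, 4308 and 1171, and 4770 and 563 under the same 3 settings. With the poly-A spikes 9 member differences changed sign. Over coMO these were egr1 (0.18), ier2b (0.33) and the dimmest fosab probe set (0.89). Over uninjected embryos they were the other 3 fosab probe sets (0.50, 0.60 and 0.031) and jdp2b (0.29), and between the controls atf4a (-0.13) and atf5b (-0.057). The median of all tested probe sets was then 1.05 over coMO, 0.69 over uninjected embryos and -0.36 between the controls. The hybridization controls changed the sign of 4 fosab and jdp2b differences and median centring of 2 fosab differences. Leaving out 1 array changed that of fosl2 or atf3 between the controls and of 1 fosab probe set over uninjected embryos. Of 570 recomputed log2 differences of members, 469 stayed the same and 98 moved by more than the replicate spread. Another 3 changed sign where limma had called the difference as first fitted. Staying the same meant within the replicate spread. For fosl2, junbb, atf3, atf4a and atf5b between the controls it meant an unchanged limma outcome. The cause of these changes was not tested. The arrays give signals and not counts, and low signals such as egr1 at 103 to 111 lie closest to the offset.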
